A study of Mus musculus with 6 samples.

Results

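Rrad and Gem are the small GTPases described here, in arrays of the mouse paraventricular nucleus (PVN), a cell group of the hypothalamus, after electroconvulsive seizure (ECS). Every probe set annotated to Rrad alone or to Gem alone was taken, which gave 1 probe set for each gene, 2 of the 22690 on the array. None of the probe sets annotated to several genes names either of them (0 for both). The Gem probe set is of the kind that matches several transcripts of the same gene, so it does not separate Gem isoforms. Both genes were selected because their signals were high 2 h after ECS in these same arrays. Their levels and differences are therefore given as a description, with standard errors and no test.

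Rrad and Gem belong to the RGK family of Ras-related GTPases, together with Rem1 and Rem2. RGK proteins bind the beta subunits of voltage-gated calcium channels and inhibit calcium entry through high-voltage-activated channels, both by lowering the number of channels at the cell surface and by reducing the current of channels already there. Gem was first known as a mitogen-induced gene of lymphocytes and Rrad as a gene of skeletal and heart muscle. 14-3-3 proteins bind RGK proteins and influence where in the cell they lie, and Gem and Rrad also act on the cytoskeleton. The PVN holds the oxytocin, vasopressin and corticotropin-releasing hormone neurons that drive hormone release.

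All mice were C57Bl/6 and all were anesthetized with isoflurane. The ECS mice received a single bilateral shock through ear clips and were killed 2 h or 6 h later, and the sham mice were handled in the same way without current and killed at 2 h. There was no sham group at 6 h, so the samples at 6 h are set against the sham samples taken at 2 h. Each of the 3 groups has 2 arrays, each array holds amplified RNA from the laser-dissected PVN of 2 or 3 pooled animals, and replicates 1 and 2 come from separate runs with different animals. The labels used here give neither the age nor the sex of the mice. In pooled tissue RNA, more RNA per cell and more cells of the type that holds it cannot be told apart.

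The array medians lay between 25.2 and 40.8 signal units as deposited, so the 6 arrays were not on a common level and were quantile normalized. The mean rank correlation of each array with the other 5 was 0.887 for ECS 6 h replicate 1 and between 0.906 and 0.919 for the others. Of the defining PVN genes, oxytocin (Oxt) and vasopressin (Avp) were bright in every group, with a mean log2 signal of 10.84, 11.00 and 11.26 for Oxt and 9.78, 10.05 and 10.12 for Avp in sham, ECS 2 h and ECS 6 h. Sim1, a transcription factor that PVN neurons need to form, lay between 7.86 and 8.80 on the 6 arrays. Otp, another such factor, was below the array medians, and Crh had no probe set annotated to it alone. With so few arrays, every value below is imprecise.

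Rrad was the clearer of the pair. Its deposited signal was 22.7 and 22.0 in the sham group, 175.5 and 139.9 in the group at 2 h, and 42.6 and 51.3 in the group at 6 h. Both arrays at 2 h were far above all others, both arrays at 6 h lay between, and both sham arrays were lowest, with no overlap between any pair of groups. Set against its own array, Rrad was above 47.6% and 39.1% of all probe sets in sham, above 83.9% and 76.9% at 2 h, and above 57.4% and 56.9% at 6 h. In sham it was thus below the array median on both arrays, and at 2 h and 6 h above it on all 4.

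After quantile normalization the Rrad signal was 27.5 and 16.8 in sham, 217 and 133 at 2 h, and 46.3 and 45.1 at 6 h. An offset of 16 signal units was added before log2 was taken, which sets a floor of 4 on the log2 scale. On that scale Rrad was 5.24 ± 0.29 in sham, 7.54 ± 0.45 at 2 h and 5.95 ± 0.019 at 6 h (mean ± SD, n = 2 arrays). The order of the groups was ECS 2 h, ECS 6 h and sham, and the arrays of the last pair of groups did not overlap.

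Gem followed the same order at 2 h with a smaller difference. Its deposited signal was 30.2 and 23.8 for sham, 58.4 and 89.8 at 2 h, and 30.6 and 33.9 at 6 h. Both arrays at 2 h were above the other 4, while the arrays at 6 h were close to sham replicate 1. Gem stood above 53.3% and 40.4% of the probe sets of its array in sham, 65.9% and 69.1% at 2 h, and 51.4% and 49.0% at 6 h, so outside the 2 h group it lay near the middle of each array. On the normalized log2 scale it was 5.42 ± 0.45 in sham, 6.56 ± 0.14 at 2 h and 5.58 ± 0.087 at 6 h (mean ± SD, n = 2 arrays). The levels at 6 h and in sham do not differ beyond the spread of the sham arrays, which were at 5.74 and 5.10 with the arrays at 6 h, 5.64 and 5.52, between them.

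**Figure D1:**
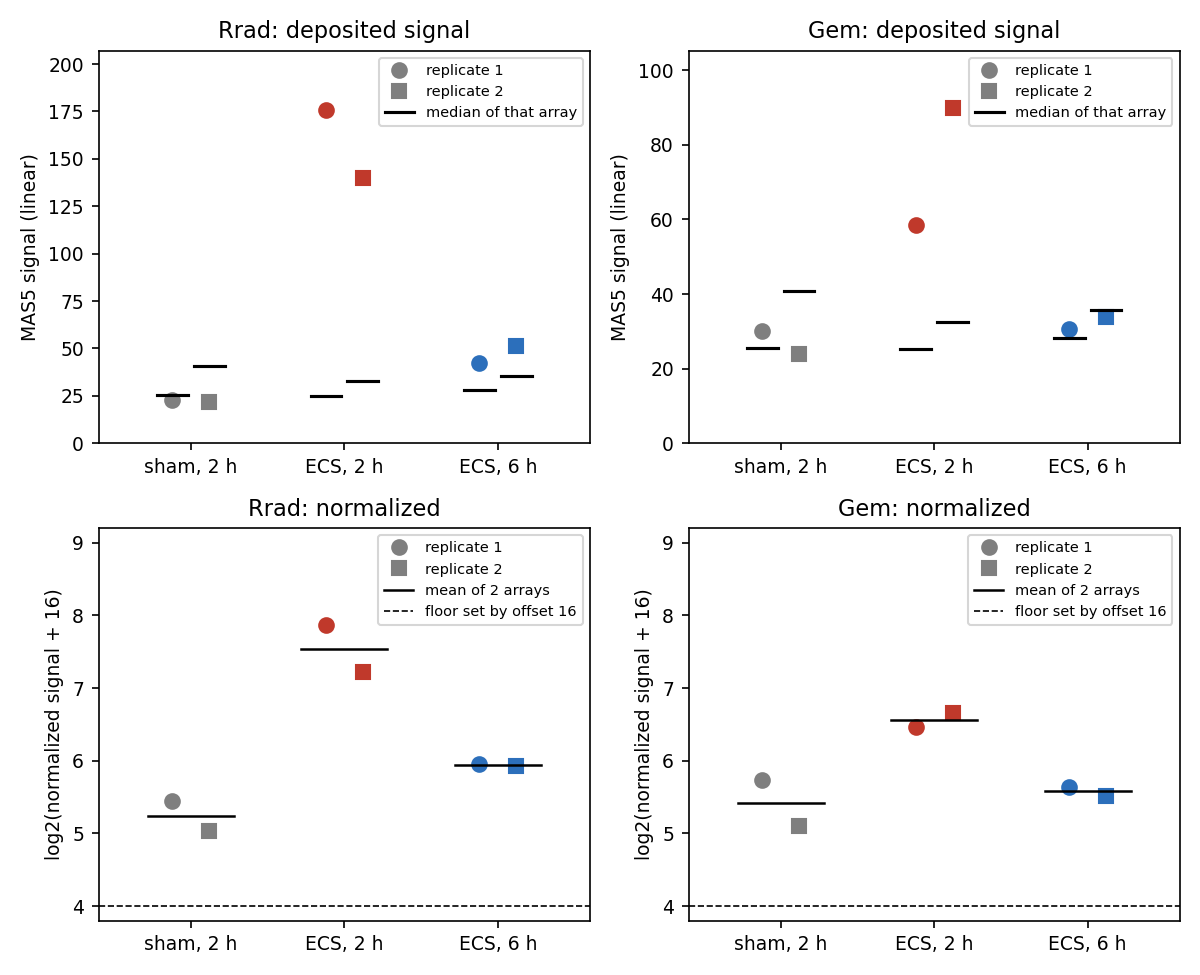
Rrad (left) and Gem (right) on each of the 6 arrays, as the deposited MAS5 signal on a linear axis (top, with a black bar at the median of all probe sets of that array) and as log2 of the normalized signal plus 16 (bottom, with a black bar at the mean of the 2 arrays of a group and a dashed line at the floor of 4). Circles are replicate 1 and squares replicate 2, and for both genes both arrays at 2 h lie above every other array.

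Compared with sham, Rrad was 2.30 ± 0.40 log2 units higher at 2 h (difference ± SE from limma, 4.93-fold on the scale with the offset). The ratio of the mean normalized signals, 175 over 22.2, was 7.89-fold. For Gem the difference was 1.14 ± 0.42 log2 units, or 2.21-fold with the offset and 2.83-fold as the ratio of mean signals, 78.7 over 27.8. Among the 12662 probe sets tested, ordered by this difference from the highest down, Rrad was number 2 and Gem number 121. These places describe the selection of the genes and are no evidence for it.

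Within each run the direction was the same. Rrad at 2 h was higher than sham by 2.42 log2 units in replicate 1 and by 2.18 in replicate 2, and Gem by 0.72 and 1.56. Rrad thus differed little between runs, while the Gem difference in replicate 2 was more than that in replicate 1. The low sham value of Gem in replicate 2 enters the second of these. Without sham replicate 2 the Gem difference was 0.82, and without sham replicate 1 it was 1.49. Leaving out 1 array at a time kept the Rrad difference between 2.00 and 2.61.

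At 6 h most of the difference was no longer there. Rrad was still 0.71 ± 0.40 log2 units above sham (1.63-fold with the offset, 2.06-fold in mean signal), which is 30.7% of its log2 difference at 2 h. The arrays did not overlap and both runs had the same sign, 0.52 and 0.90, yet the difference was below 2 standard errors and 660th from the top among the tested probe sets. Gem was 0.16 ± 0.42 log2 units above sham (1.12-fold), 14.0% of its difference at 2 h. After quantile normalization the groups overlapped, the runs had opposite signs (-0.10 and 0.42), and without sham replicate 2 the value was -0.16. Overlap and opposite signs both depend on the scaling. Without scaling Gem was at 5.31 to 5.53 in sham and 5.54 to 5.64 at 6 h, with no overlap. The deposited signals at 6 h were 1.01-fold and 1.42-fold those of sham in the runs. With median or trimmed mean scaling the groups overlapped.

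From 2 h to 6 h the Rrad level was lower by a log2 difference of -1.60 ± 0.40, a 3.02-fold decrease with the offset. In the runs taken apart the difference was -1.90 and -1.29. Gem differed by -0.98 ± 0.42 log2 units, 1.98-fold, with -0.82 and -1.15 in the runs. For both genes the arrays at 6 h were all below those at 2 h. The 3 comparisons share their arrays, so a high level at 2 h enters both the first and the last of them. ECS 6 h replicate 1, which correlated least with the other arrays, changes little: without it Rrad was 0.69 and Gem 0.10 above sham at 6 h.

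The whole array gives the background for these values. In the limma fit over 12662 probe sets, none passed a Benjamini-Hochberg adjusted p of 0.05 at 2 h against sham (0 probe sets, 0%), and 507 (4.0%) had an unadjusted p below that value. With the run as a block 4 probe sets passed (0.0316%). In the comparison of 6 h with sham, 0 passed with or without the block and 475 (3.75%) passed unadjusted, and between 6 h and 2 h 0 passed with or without the block and 438 (3.46%) passed unadjusted. Without ECS 6 h replicate 2, limma called 10, 6 and 3 probe sets in these comparisons, and without ECS 6 h replicate 1 it called 10 at 2 h against sham. The smallest adjusted p was 0.0525 at 2 h against sham.

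A count without a test shows how often a difference of this size was met. At 2 h, 200 probe sets (1.58%) were at least 2-fold above sham with arrays that did not overlap, and Rrad and Gem are both among them, as their selection implies. At 6 h, 166 probe sets (1.31%) were so placed above sham, and neither gene was. Between 2 h and 6 h, 216 probe sets (1.71%) were at least 2-fold lower without overlap, Rrad among them and Gem just short of it at 1.98-fold. The median log2 difference over all tested probe sets was 0.0077, -0.0033 and -0.0080 in the 3 comparisons. Quantile normalization gives all arrays the same distribution, so medians near 0 follow from it and cannot show whether a general shift existed.

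**Figure D2:**
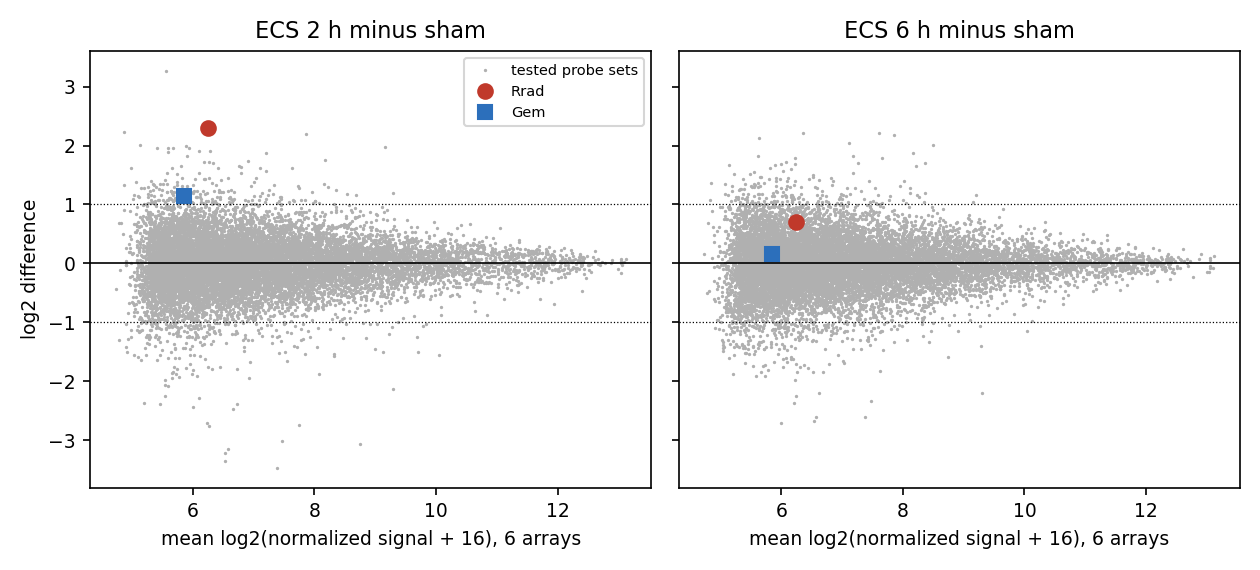
Log2 difference from sham at 2 h (left) and 6 h (right) for the 12662 tested probe sets, against the mean log2 signal over the 6 arrays, with Rrad as a red circle, Gem as a blue square and dotted lines at 2-fold. Both genes lie at the dim end of the axis, where the spread of all probe sets is wide, and both are past the upper line at 2 h and inside the lines at 6 h.

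Both genes lie near the signal floor in sham, so the size of their differences depends on the offset. With no offset the Rrad difference at 2 h was 2.98 log2 units, with 1 it was 2.92, with 4 it was 2.76, with 32 it was 1.91, with 64 it was 1.45 and with the largest tried, 8 times 16, it was 1.00. The matching values for Gem were 1.58, 1.55, 1.44, 0.90, 0.64 and 0.41. The direction was the same at every offset, while the log2 difference with the largest offset was a small part of that with none. Rrad stayed between numbers 2 and 14 of the tested probe sets over this range of offsets, and Gem between 120 and 378.

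The differences at 6 h shrank in the same way. Rrad against sham ranged from 1.09 log2 units with no offset to 0.21 with the largest, and Gem from 0.28 to 0.039. Scaling mattered less than the offset for the size of the differences, though it decided whether Gem at 6 h overlapped with sham. With no scaling, median scaling and a trimmed mean scaled to a common value, the Rrad difference at 2 h was 2.17, 2.30 and 2.25, and that of Gem 1.05, 1.16 and 1.10. Without scaling the sham arrays had nearly the same Rrad level (SD 0.019 log2 units), since the deposited signals are close while the array medians are not.

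**Figure D3:**
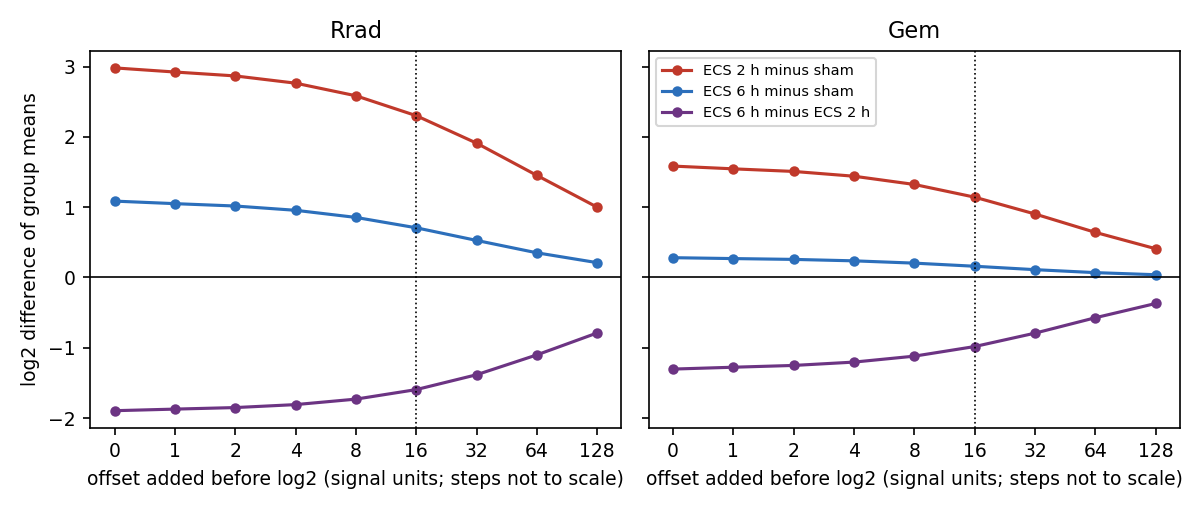
Log2 difference of group means for Rrad (left) and Gem (right) in the 3 comparisons, against the offset added to the normalized signal before log2 (signal units, steps not to scale, dotted line at the offset of 16 used elsewhere). Every curve approaches 0 as the offset grows and none crosses it, and Rrad at 2 h runs from 2.98 to 1.00.

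Only one other RGK gene could be read. Rem2, the RGK protein best known from neurons, had deposited signals of 14.3 and 12.3 in sham, 22.1 and 9.4 at 2 h, and 9.4 and 1.2 at 6 h. It was below the median of every array and was not tested. On the normalized log2 scale it was 5.03 and 4.67 in sham, 5.44 and 4.67 at 2 h, and 4.73 and 4.09 at 6 h, with groups that overlap (log2 difference at 2 h 0.20). Rem1 had no probe set annotated to it alone.

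The channel subunits and partner proteins of Rrad and Gem were read from lists drawn up with earlier results of these data known. With Rem1 and Rem2 these lists hold 43 genes, of which 35 were on the array and 24 passed the filter on low signals. At 2 h 8 of the 24 were higher than sham and 16 lower, with a median of -0.13 log2 units beside 0.0077 for all tested probe sets. None was called by limma in any comparison (0 genes, against 0% of all probe sets), and 2 (Cacnb1 and Cacng7) had an unadjusted p below 0.05 at 2 h, where 4.0% of all probe sets did. At 6 h 9 were higher and 15 lower, with 0 at an unadjusted p below 0.05 and a median of -0.055.

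The beta subunits are the ones that RGK proteins bind. They hold the pore subunit at the cell surface. Cacnb1, Cacnb2 and Cacnb4 were each measured lower at 2 h without overlap, by log2 differences of -1.17 ± 0.47, -1.05 ± 0.53 and -0.98 ± 0.51 (limma, adjusted p = 1.00 for each), and Cacnb3 had no probe set of its own.

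None of these passed the test, and the arrays differ among themselves. With 2 arrays per group, groups can be apart by chance alone. At 2 h, 241 of the 12662 tested probe sets were at least 2-fold lower than sham without overlap. The share without overlap at any size is not given here. Cacnb1 was 6.75 and 7.07 log2 units in sham, 6.35 and 5.12 at 2 h, and 6.21 and 6.70 at 6 h, so that ECS 2 h replicate 2 carries most of the difference (-0.56 without it). A further Cacnb1 probe set that was tested had the opposite sign at 2 h (0.55). Cacnb2 was at 5.35 and 5.70 in sham, 4.56 and 4.39 at 2 h, and 4.76 and 5.80 at 6 h, near the floor. Cacnb4 was at 6.94 and 7.89 in sham, 6.71 and 6.16 at 2 h, and 7.49 and 6.15 at 6 h. A second Cacnb4 probe set had the same sign (-0.79). At 6 h the values for Cacnb1, Cacnb2 and Cacnb4 were -0.45, -0.25 and -0.59.

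Of the pore subunits, which form the channel itself, 5 of the 9 on the array were tested, 2 higher and 3 lower than sham at 2 h (median -0.12). Cacna1h, a pore of low-voltage-activated T-type channels, was at 6.30 and 5.46 in sham, 7.10 and 6.40 at 2 h, and 6.42 and 6.35 at 6 h, a difference of 0.87 ± 0.44 at 2 h. A second Cacna1h probe set gave 0.34. Cacna1c, an L-type pore, was at 4.86 and 5.68 in sham, 5.52 and 5.60 at 2 h, and 6.28 and 5.79 at 6 h. Its difference of 0.77 ± 0.46 at 6 h was 0.36 without sham replicate 1 and 1.15 without sham replicate 2. Neither passed the test (limma, adjusted p = 1.00).

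Among the alpha2delta subunits, which raise the surface level of channels, 2 of 3 tested genes were higher at 2 h and Cacna2d2 was at -0.25 ± 0.34. The higher genes were Cacna2d1 at 0.11 and Cacna2d3 at 0.033. A second tested Cacna2d1 probe set had the opposite sign (-0.64). The gamma subunits and their relatives, several of which accompany AMPA receptors, gave 2 higher and 2 lower of 4 tested. Cacng7 was at 6.64 and 6.87 in sham, 4.99 and 6.05 at 2 h, and 6.21 and 6.52 at 6 h, a difference of -1.24 ± 0.44 at 2 h (limma, adjusted p = 1.00). Cacng3 was at -0.88 ± 0.44 and Cacng5 at 0.86 ± 0.58.

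The 14-3-3 proteins and other RGK partners gave 2 higher and 7 lower of 9 tested at 2 h, all within a narrow range from -0.33 to 0.11 log2 units. Ywhaz, a 14-3-3 protein, was the lowest of them, at -0.33 ± 0.22. Other Ras-like GTPases known to respond to stimulation gave no common direction at 2 h, 2 higher and 4 lower of 6 tested, with Diras1 at -0.56 ± 0.36 and Rheb, an activator of mTOR, at 0.38 ± 0.28. At 6 h their differences from sham lay between 0.0022 and 0.32 log2 units.

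**Figure D4:**
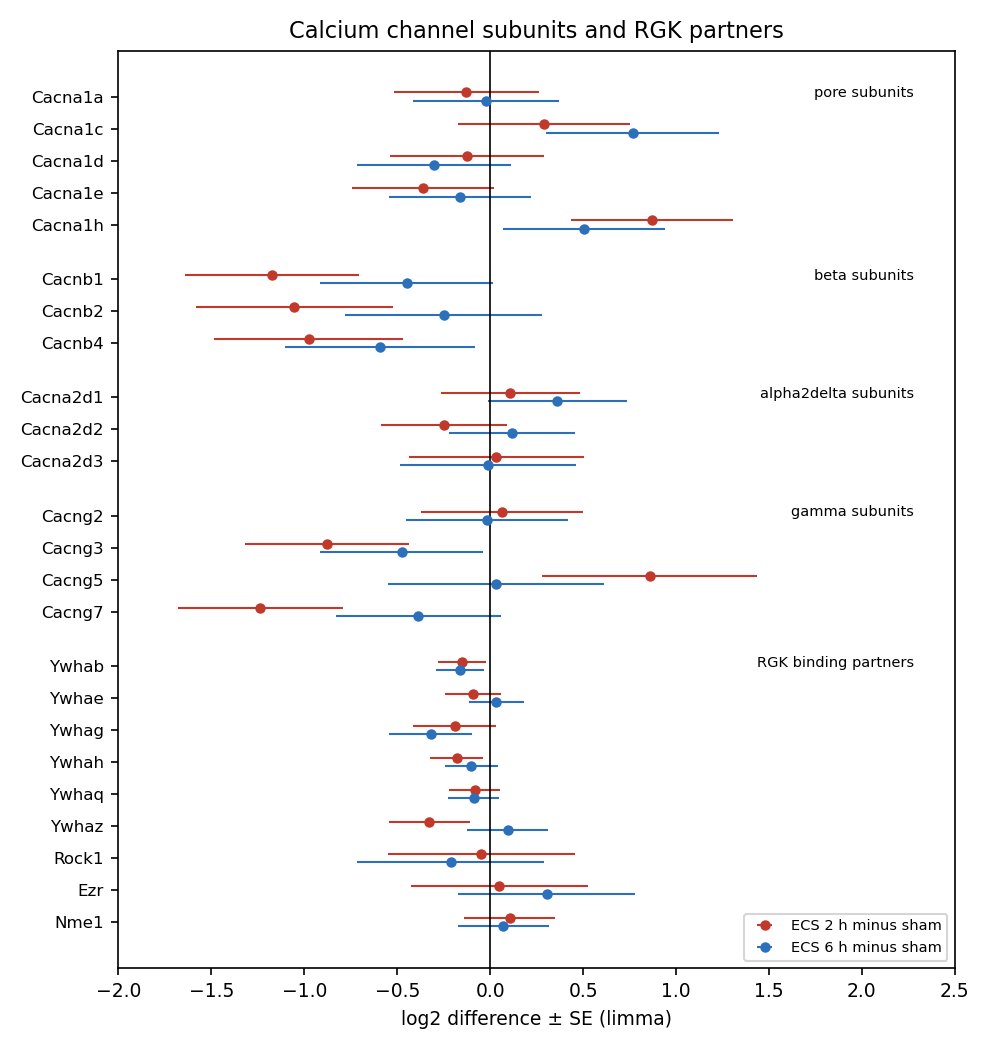
Log2 difference from sham with its SE (limma, n = 2 arrays per group) at 2 h (red) and 6 h (blue) for the 24 tested genes of the channel and partner lists, grouped by role, each gene shown through its brightest probe set. All 3 beta subunits lie left of 0 at 2 h, the 14-3-3 genes lie close to 0 with short bars, and no gene passed the adjusted test.

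The genes whose pattern was most like that of each member were ranked by Pearson's r over the 6 arrays, among 4572 genes with a range of at least 1 log2 unit. The arrays fall into groups of treatment and time, so a high r says mainly that a gene was high at 2 h, and no p is given. For Rrad the 8 closest were Cep112 (r = 0.978), Fos (0.976), Scaf8 (0.976), Orc4 (0.971), AI413582 (0.962), As3mt (0.958), Trhr (0.956) and Helb (0.954). For Gem they were Shf (0.977), Lamc1 (0.974), Cnot2 (0.973), Orc4 (0.964), Prpf31 (0.953), Vash2 (0.952), Atp7a (0.950) and Chodl (0.944). The probe sets of Cep112 and AI413582 are of kinds that can match transcripts of other genes. The same holds for those read for Cacnb1, Ywhaz and Acta2 and for the second tested Cacna2d1 probe set. Only Orc4, a subunit of the origin recognition complex, stands in both lists, at 7.04 and 6.49 in sham, 8.11 and 7.91 at 2 h, and 6.91 and 7.08 at 6 h. Gem was 24th in the order for Rrad and Rrad 19th in the order for Gem.

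Fos, the immediate early transcription factor used as a marker of neuronal activity, was the second most alike for Rrad and the 41st for Gem. Its deposited signal was 14.5 and 21.6 in sham, 109.5 and 101.9 at 2 h, and 21.5 and 46.8 at 6 h, with both arrays at 2 h above all others and no overlap between sham and 2 h. Trhr, the receptor for thyrotropin-releasing hormone, was near the floor in sham at 4.41 and 4.43 log2 units, with 5.91 and 5.71 at 2 h and 4.75 and 5.20 at 6 h. Lamc1, a laminin chain of the basement membrane, had the widest range of the genes closest to Gem, 2.40 log2 units. With no scaling 4 of the 8 genes for Rrad and 6 of the 8 for Gem stayed in place, and with median scaling 7 and 8.

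**Figure D5:**
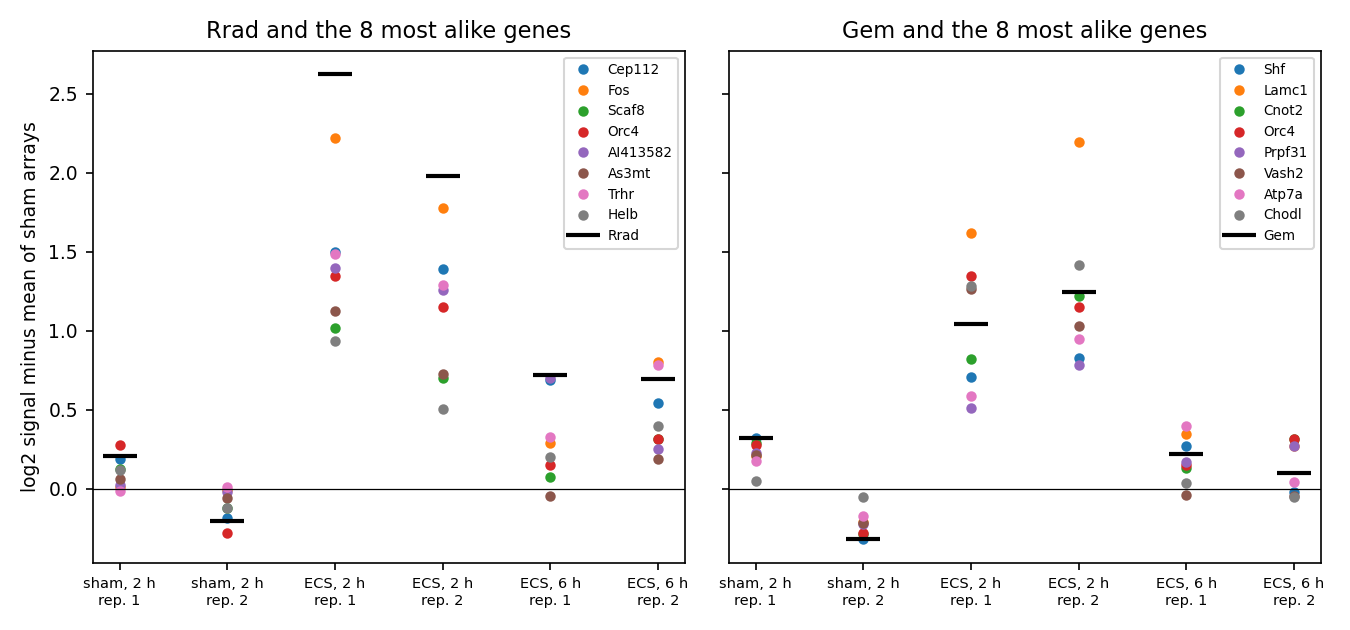
Log2 signal of the 8 genes most alike to Rrad (left) and to Gem (right) on each of the 6 arrays, less that gene's mean over the sham arrays, with the member itself as a black bar. Rrad lies above all of its 8 genes on both arrays at 2 h, whereas Gem lies among its own.

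Immediate early transcription factors were read as a list beside Rrad and Gem, and any link between the list and these genes was not tested. At 2 h 11 of the 14 tested were higher and 3 lower, with a median of 0.68 log2 units. In limma 0 were called and 5 had an unadjusted p below 0.05, where 4.0% of all tested probe sets did. Fosb and Klf2 passed the filter on low signals only through the arrays at 2 h. The counts and medians of this list therefore lean toward genes that were high at that time. Fosb was 2.02 ± 0.51 higher, Fos 2.00 ± 0.42, Maff 1.96 ± 0.43 and Jun 1.16 ± 0.36. At this offset the Rrad difference was 2.30 and that of Gem 1.14. Their order among these genes depends on the offset. With an offset of 1 Fosb was at 3.44 and Jun at 1.21, beside 2.92 for Rrad and 1.55 for Gem, and with 64 Fosb was at 0.96 and Jun at 1.03, beside 1.45 and 0.64. Without sham replicate 2 the difference for Jun was 0.71. From 2 h to 6 h 13 of the 14 were lower, with a median of -0.84, beside -1.60 for Rrad and -0.98 for Gem.

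Because Rrad is known from muscle, markers of muscle and mural cells were read beside it. The skeletal muscle genes Ckm, Myl1 and Acta1 and the muscle filament gene Des were below the median of every array and near the floor, with Ckm between 4.05 and 4.31 log2 units on the 6 arrays and Acta1 at 5.10 on ECS 6 h replicate 2. The summed normalized signal of the 14 markers was between 1232 and 1358 in sham, between 929 and 1307 at 2 h and between 891 and 1203 at 6 h, with the pericyte gene Rgs5 by far the brightest of them. Of the 6 tested, 3 were higher and 3 lower at 2 h (median -0.43). In limma 2 had an unadjusted p below 0.05, where 4.0% of all tested probe sets did, and 0 were called. At 6 h against sham 2 were higher and 4 lower. In limma 4 of the 6 then had an unadjusted p below 0.05, where 3.75% of all tested probe sets did, and 0 were called. At 2 h Acta2, Mylk and Myl9, genes of the smooth muscle contractile apparatus, were at -0.90, -1.76 and -1.16 log2 units against sham. Pdgfrb and Kcnj8, markers of mural cells, were at 0.59 and 0.48, and Rgs5 at 0.043. Of the dim and untested smooth muscle genes, Tagln was at 4.17 and 4.26 in sham and 4.33 and 5.36 at 2 h. Cnn1 was at 4.08 and 4.08 in sham and 4.53 and 5.19 at 2 h, so both were higher than sham. Myh11 overlapped, at 5.14 and 4.99 in sham and 5.36 and 4.59 at 2 h. With 2 arrays per group, groups can be apart by chance alone. The part of these markers in the Rrad value was not tested.

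Markers of other cell types also differed between the groups. The PVN marker list had a summed signal of 4435 to 5279 in sham, 6084 to 6298 at 2 h and 6424 to 6547 at 6 h, with 5 of 6 tested genes higher than sham at both times. Endothelial markers had a summed signal of 924 to 1262 in sham, 1185 to 1708 at 2 h and 1077 to 1182 at 6 h, with 5 of 6 tested genes higher at 2 h (median 0.47). Slc2a1 was by far the brightest endothelial marker and makes up most of this sum. It was at 9.92 and 9.24 log2 units in sham, 10.19 and 9.74 at 2 h, and 9.65 and 9.23 at 6 h. Neuron markers gave 12 of 13 lower at 2 h (median -0.46). Of the 13, 4 had an unadjusted p below 0.05 in limma, where 4.0% of all tested probe sets did. The neuron list summed to 16132 to 16561 in sham, 11973 to 12438 at 2 h and 12982 to 14985 at 6 h. Astrocyte, oligodendrocyte and microglia markers had medians of -0.17, -0.22 and 0.050 at 2 h. The summed signal of the neuron markers was lowest at 2 h, where Rrad and Gem were highest. None of these genes was called (limma, 0 in each list), no marker of any list was at 0 on any array, and the part of these shifts in the Rrad and Gem values was not tested.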

How the data were processed

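The authors deposited intensity values on a linear scale for 22690 probe sets on 6 arrays, computed with MAS5 according to the submitters' processing notes. Its version, scaling target and presence calls are not given in these sources. The 64 control probe sets were left out, and 12662 of 22626 (56.0%) at or above the median of their array on at least 2 of the 6 arrays were tested. Rrad passed on the 4 ECS arrays, and Gem on both arrays at 2 h and replicate 1 of the others.

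Signals were quantile normalized and log2(signal + 16) was fitted with limma 3.58.1 in R 4.3.3 (1 mean per group, variance trend, prior degrees of freedom 7.64, residual 3), with Benjamini-Hochberg adjustment at 0.05, two-sided. A gene of a list was represented by its single-symbol probe set of highest mean signal. Symbols came from the array annotation (20380 probe sets with 1 symbol, 691 with several, 1555 with none), matched to RefSeq for 20351. The fit was tested on simulated data, for 2 h against sham. It called 6.71% of the 2-fold, 53.3% of the 4-fold and 90.8% of the 8-fold changes put in, with 5.2 false calls per draw. These changes were put in on the log2 scale with the offset, on arrays drawn independently of each other. On that scale a given fold change in the signal of a dim gene is smaller. A count of 0 called genes therefore does not show that 2-fold changes were absent. Figures were drawn with matplotlib 3.10.9.

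The members and gene lists were chosen with earlier results of these data known. Named genes are Rrad and Gem, up to 4 per list by smallest p, the 8 most alike to each member, and Fos, Oxt and Avp. Further list genes, among them Rem2, Otp, Trh, Egr1 and the muscle and mural markers, were named outside this rule after their values were seen. The labels state that the arrays were run in 2 sets with different animals. Deviations from the group means of arrays with the same replicate number correlated at 0.228, 0.185 and 0.151, so the number was used as a block in an alternative fit. Other alternatives changed the offset, scaling, filter, variance trend, array weights, the arrays fitted and the probe set per gene, and left out each array.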

Additional observations from a re-analysis of the deposited data

How the results depend on the processing

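The offset changed the size of the Rrad and Gem differences and their direction held at every offset, while leaving out a sham array turned the Gem difference at 6 h. At 2 h against sham, offsets of 0 (chosen after seeing the data), 1, 4, 32 and 64 and the largest, 8 times 16, gave 2.98, 2.92, 2.76, 1.91, 1.45 and 1.00 for Rrad. Offsets of 0, 1, 4 and 64 and the largest gave 1.58, 1.55, 1.44, 0.64 and 0.41 for Gem. At 6 h against sham Rrad was 1.09 with 0, 1.05 with 1, 0.35 with 64 and 0.21 with the largest. Between 6 h and 2 h Rrad was -1.10 with 64 and -0.79 with the largest, and Gem -1.30 with 0, -1.28 with 1, -0.57 with 64 and -0.37 with the largest. Leaving out each array gave, in the order 2 h against sham, 6 h against sham and 6 h against 2 h, 2.00 to 2.61, 0.50 to 0.93 and -1.91 to -1.28 for Rrad, and 0.82 to 1.49, -0.16 to 0.49 and -1.09 to -0.88 for Gem. The other alternatives moved neither gene by more than the spread between arrays.

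Called probe sets at 2 h against sham numbered 0 in the fit reported, 1 with no scaling, 1 with median scaling, 2 with array weights, 7 with only the 4 arrays of the comparison, 4 with the replicate block and 0 to 10 without 1 array. For 6 h against sham and 6 h against 2 h they numbered 0 to 6 and 0 to 3 without 1 array. The replicate block changed no call among the channel and partner genes, of which 0 were called under every alternative run. Probe sets past 2-fold without overlap numbered 441, 414 and 383, against 874, 910 and 833 at an offset of 1 and 91, 62 and 41 at 64. Some smaller differences turned when 1 array was left out. At 2 h Cacng5 ran from -0.067 to 1.76, Cacna2d2 from -0.89 to 0.40 and Ywhaz from -0.71 to 0.052. At 6 h Cacnb2 ran from -0.76 to 0.27 and Cacnb4 from -1.24 to 0.081. The cause of these shifts was not tested, apart from the offset, which shrinks dim signals toward the floor by construction. Sham signals of both genes were near or below the array median. Background was not measured here, and its part in the fold changes was not tested.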

Other observations

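Trh, the precursor of thyrotropin-releasing hormone and the ligand of the receptor Trhr, was bright on every array. Its normalized log2 signal was 9.11 and 10.09 in sham, 10.08 and 10.52 at 2 h, and 9.85 and 10.15 at 6 h, with groups that overlap. Egr1, an immediate early transcription factor that is not among the genes closest to Rrad or Gem, was at 8.31 and 8.15 in sham and 9.45 and 8.90 at 2 h, and at 6 h it was below sham, at 7.51 and 7.79. Rrad at 6 h was above sham on both arrays.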
